A study of Homo sapiens with 6 samples.

Results

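The 5′ UTR regions described here were the stretches of the human genome bound by RNA polymerase II (RNA pol II) whose annotation in the deposited region lists was 5′ UTR. They were taken from 4 lists, 2 for each of 2 antibodies, and numbered 1776 of the 271336 regions in all. RPB1 gave 303 such regions of 46045 in SHP-1-WT cells and 243 of 41605 in SHP-1-KO cells. RPB1 phosphorylated on serine 2 (pSer2) gave 696 of 102674 in SHP-1-WT cells and 534 of 81012 in SHP-1-KO cells. The class was therefore a small one, at 0.658% (95% Wilson interval 0.588 to 0.736) and 0.584% (0.515 to 0.662) of the RPB1 regions and 0.678% (0.629 to 0.730) and 0.659% (0.606 to 0.717) of the pSer2 regions, in WT and KO cells respectively. The intervals of the 2 genotypes overlapped for both antibodies. All intervals given here cover counting error only.

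The study asked how the tyrosine phosphatase SHP-1, encoded by PTPN6, relates to the occupancy of RNA pol II in hepatic cells. HepG2 is a human hepatocellular carcinoma line that keeps many hepatocyte functions. The SHP-1-KO cells (CRISPR knockout) were made with guides to exons of the phosphatase domain, and the SHP-1-WT cells (CRISPR control) with nontargeting guides. Both were grown as clonal lines, so a difference between the genotypes cannot be told apart from a difference between clones. Neither group was treated. Each antibody (ab817 for RPB1 and ab5095 for pSer2) was used once in each genotype. With 1 library per antibody and genotype there was no replicate, and no test between the genotypes was made. The values are fold enrichments over the input DNA of the same cells at the summit of each region, and both antibodies of a genotype share that input. The read depth of the libraries is unknown from the lists, so an absent region means only that none passed the caller's threshold. The targeted gene PTPN6 had a promoter region in each list (fold enrichment 23.95 in WT and 17.20 in KO for RPB1, 4.03 and 5.24 for pSer2), and occupancy at its promoter does not check the deletion of the protein. Of 10 hepatocyte genes chosen as markers (among them ALB, AFP, APOA1, APOB, TTR, SERPINA1, FGB, HNF4A and FOXA2), 9 and 8 had an RPB1 region and 10 and 9 a pSer2 region in WT and KO cells. Neither PTPN6 nor PCK1, the gluconeogenic enzyme on which the study concentrated, had a region of the 5′ UTR class in any list.

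The 5′ UTR is the part of a messenger RNA between its capped start and the start codon. In many human genes it is split by an intron, so that its last portion lies in the second or a later exon, and the DNA of one 5′ UTR can extend over many kilobases. RPB1 is the largest subunit of RNA pol II, and antibodies to it mark initiating and paused as well as elongating polymerase near the transcription start. Phosphorylation of serine 2 in the C-terminal repeats of RPB1 accompanies productive elongation and accumulates through the gene body towards the 3′ end.

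To show what lies inside these regions, the ends of the 5′ UTR are given for 6 genes, namely the 6 strongest in the WT RPB1 list among loci of this class in all 4 lists whose region held both a downstream 5′ UTR exon of the assigned gene and its start codon. Each acceptor line has 20 intronic and 10 exonic bases with the splice acceptor AG in capitals, and each start line has 15 bases before and 12 after the ATG, which is in capitals. All are read 5′ to 3′ on the + strand of hg38.
FOXA3 acceptor of exon 2, chr19:45872055-45872084: tcctttcatctttcccctAGgtctactcgc
FOXA3 start, chr19:45872090-45872119: accccagtgcccaccATGgcccccctcaac
RNF213 acceptor of exon 2, chr17:80263554-80263583: ctgtgatttcactttcgcAGaaaatgaaac
RNF213 start, chr17:80263667-80263696: gtcccagcaggacccATGgagtgtccttcg
PELO acceptor of exon 2, chr5:52799865-52799894: actccccggattcttcacAGacagggatgg
PELO start, chr5:52800380-52800409: gccccttccttggccATGaagctcgtgagg
SPHK2 acceptor of exon 3, chr19:48627672-48627701: accctaacctctctccacAGagatcacccc
SPHK2 start, chr19:48627784-48627813: aaccacgtgcttcccATGatctctgaagct
SERPINF2 acceptor of exon 2, chr17:1744972-1745001: gctttctgtccctgccacAGgaacatggcg
SERPINF2 start, chr17:1744981-1745010: ccctgccacaggaacATGgcgctgctctgg
GAA acceptor of exon 2, chr17:80104535-80104564: cccgctttcttctcccgcAGgcctgtagga
GAA start, chr17:80104572-80104601: aggccatctccaaccATGggagtgaggcac
In these 6 genes the start codon stood in the same exon as the acceptor, and in SERPINF2 the stretches overlapped because the 5′ UTR portion of that exon was so short. The FOXA3 exon belongs to an alternative transcript of 2 exons in GENCODE release 44.

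Most 5′ UTR regions lay downstream of the start of the gene to which they were assigned, and none lay at it. Regions within 1000 bp of an assigned start had been called promoter, and the nearest 5′ UTR region was 1001 bp away. The median distance, without regard to sign, was 2345 bp and 2400 bp for RPB1 and 3371 bp and 3626 bp for pSer2 in WT and KO cells. Thus the pSer2 regions of this class were farther from the start than the RPB1 regions in both genotypes, while the genotypes were close to each other. Of the WT RPB1 regions 229 lay downstream and 74 upstream of the assigned start, and of the WT pSer2 regions 487 and 209. In KO cells the numbers were 181 and 62 for RPB1 and 384 and 150 for pSer2.

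The annotation was compared with GENCODE release 44 on the same build. A 5′ UTR of that release was touched by 293 (96.7%) and 233 (95.9%) of the RPB1 regions and by 647 (93.0%) and 495 (92.7%) of the pSer2 regions in WT and KO cells. The portion touched was in exon 2 of the host transcript for 59.4%, 58.4%, 57.7% and 57.0% of them, in the order WT RPB1, KO RPB1, WT pSer2 and KO pSer2. The start codon itself lay inside 51.2% and 42.9% of the RPB1 regions and 53.6% and 51.7% of the pSer2 regions that touched a 5′ UTR. The label was nonetheless one of overlap. Only 26.1% and 30.5% of the RPB1 summits and 17.0% and 17.8% of the pSer2 summits were in a 5′ UTR of that release, while 46.2% and 47.3%, and 58.9% and 56.6%, were in an intron. The median region had 13.8% of its bases in a 5′ UTR for WT RPB1 and 10.6% for WT pSer2. An annotated start of that release lay within 1000 bp of 54 of the 303 WT RPB1 summits, 46 of 243 in KO, 66 of 696 for WT pSer2 and 60 of 534 in KO. The median fold enrichment of these was 6.06 and 6.34 for RPB1, against 5.04 and 5.13 for the members farther away, and 4.00 and 3.83 for pSer2, against 3.87 and 3.93. Members near a further start were thus somewhat higher with RPB1 and hardly different with pSer2.

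The strongest regions of the class in the RPB1 lists were at DBN1, EGLN1, PRRC2B and FOXA3. The region assigned to DBN1, the gene of the actin-binding protein drebrin, touched a 5′ UTR of the neighbouring PRR7 in GENCODE release 44 (chr5:177454110-177457057) and had fold enrichments of 54.07 in WT and 38.75 in KO. At EGLN1, whose product hydroxylates hypoxia-inducible factor, RPB1 reached 40.18 in WT and 29.34 in KO. At PRRC2B the values were 36.68 and 25.08. An annotated start of GENCODE release 44 lay 13 bp from the WT summit at EGLN1 and 57 bp from that at PRRC2B. Those summits thus lay at a further annotated start, whereas the WT summit at DBN1 was 5308 bp from the nearest one. These 3 regions were of the 5′ UTR class in both genotypes and each was lower in KO cells, by less than 2-fold. Even the DBN1 region stood only at the 97.2th percentile of all WT RPB1 regions. With pSer2, PRRC2B had 5′ UTR regions of 3.65 in WT and 5.35 in KO, the latter at the 85.5th percentile of its list, and EGLN1 had 3.23 in WT and no region in KO. The DBN1 region overlapped pSer2 regions of other classes that reached 8.64 in WT and 5.40 in KO, at the 97.0th and 85.8th percentiles.

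FOXA3, which encodes a forkhead transcription factor of hepatocytes, was high with both antibodies. Its RPB1 region was 32.87 in WT and 27.83 in KO, and its pSer2 region was 12.76 in WT and 20.18 in KO, at the 99.0th and 99.8th percentiles of the pSer2 lists. RPB1 was thus lower and pSer2 higher in KO, both by less than 2-fold. In the pSer2 lists FOXA3 also exceeded the region at the start of its host transcript, which was 8.96 in WT and 6.23 in KO. The 5′ UTR regions spanned 6378, 6949, 6447 and 4675 bp, in the order WT RPB1, KO RPB1, WT pSer2 and KO pSer2, and their summits lay beyond the annotated genes. Among the other strong RPB1 regions, PELO, the gene of a ribosome rescue factor, had 22.14 in WT and 24.51 in KO, and ETFB, the gene of the beta subunit of electron transfer flavoprotein, had 20.88 and 20.62. Both differed little between the genotypes. The KO summit at PELO lay 82 bp from an annotated start of GENCODE release 44.

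In the pSer2 lists the strongest region was assigned to LOC100129917 and lay over the 5′ UTR of PCGF3, a Polycomb group gene, with 31.25 in WT and 21.25 in KO. MMACHC, whose product processes cobalamin, had 22.83 in WT, where it came next, and 18.80 in KO, where FOXA3, MORF4L2 and CDC42EP1 were higher. MORF4L2 had 16.33 and 19.52, and the region assigned to the small nucleolar RNA gene SNORA74A, over the 5′ UTR of MATR3, had 18.82 and 16.78. At SLC39A14, a zinc and manganese transporter gene, pSer2 was 18.87 in WT and 16.04 in KO. These 5 loci had a 5′ UTR region with pSer2 in both genotypes, the difference staying under 2-fold and going either way. The pSer2 regions there were 5252 to 12830 bp long, and none of their summits was in a 5′ UTR of GENCODE release 44. The strongest RPB1 regions that overlapped them were of other classes, with 22.73 in WT and 66.80 in KO at SLC39A14, 24.78 and 15.74 at MMACHC, 15.67 and 23.52 at SNORA74A, 12.49 and 15.31 at MORF4L2 and 12.23 and 10.04 at LOC100129917. RPB1 regions of the 5′ UTR class at these loci were lower, such as 7.78 in WT and 6.27 in KO at LOC100129917.

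**Figure D1:**
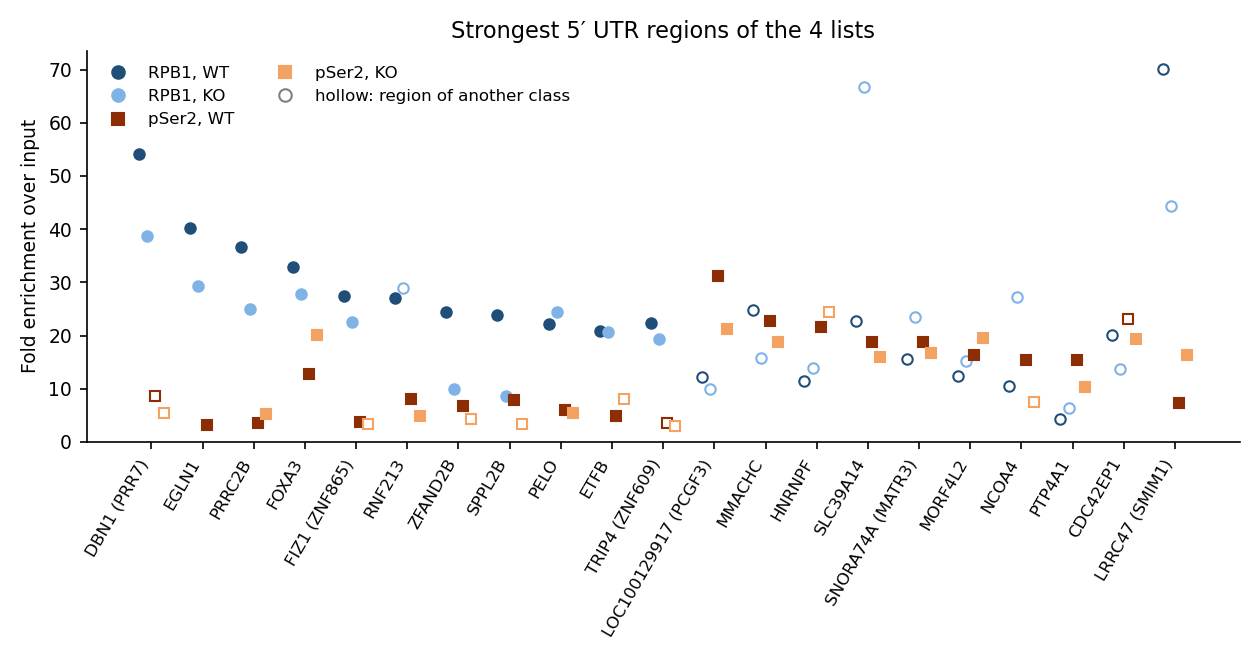
Fold enrichment over input (vertical axis) at the loci with the 8 strongest 5′ UTR regions of each of the 4 lists, named by the assigned gene with the GENCODE release 44 host in brackets where it differs. Circles are RPB1 and squares pSer2, and hollow symbols are overlapping regions of another class. Among the filled symbols DBN1 leads with 54.07 in WT RPB1, and the pSer2 squares rise above 15 only to the right and at FOXA3 in KO.

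RPB1 in the 5′ UTR regions was far below RPB1 at the start of the same transcript, whereas pSer2 was close to its own level there. The pSer2 values also had a narrower range, with quartiles of 3.17 and 4.51 over the WT list against 4.45 and 12.05 for RPB1. The part of that range in the contrast was not tested. A region within 1000 bp of the host transcript's start was present in the same list for 250 (85.3%) of the WT and 199 (85.4%) of the KO RPB1 regions that touched a 5′ UTR of the release. The median fold enrichment was 5.36 in the 5′ UTR regions against 33.21 at the start in WT, and 5.22 against 25.27 in KO. On the log2 scale the median difference of 5′ UTR region and start was -2.58 in WT and -2.25 in KO. For pSer2, 522 (80.7%) and 388 (78.4%) had such a start region, the medians were 3.99 against 4.89 in WT and 3.98 against 4.73 in KO, and the log2 difference was -0.24 and -0.23. The 5′ UTR region exceeded the start region in 8.80% and 8.54% of these RPB1 cases and in 35.4% and 36.3% of these pSer2 cases, in WT and KO cells. DBN1 was one of the exceptions with RPB1, at 54.07 against 17.80 at the start of the PRR7 transcript, whereas FOXA3 had 32.87 against 91.47. The start region was the strongest other region, even where the member itself touched exon 1 of the host transcript. That held for 39 WT and 33 KO RPB1 members. EGLN1 in WT, at 40.18 against 5.02, was thus a member near an annotated start set against a neighbouring region.

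**Figure D2:**
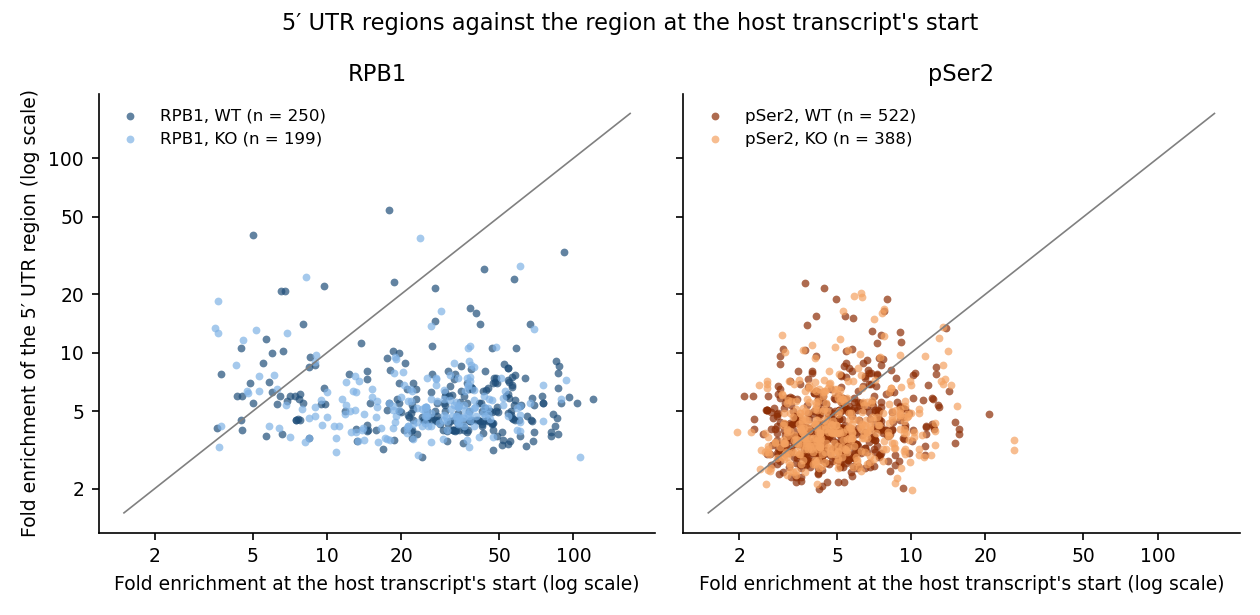
Each point is 1 region of the 5′ UTR class, with its fold enrichment (vertical, log scale) against that of the strongest other region within 1000 bp of the host transcript's start in the same list (horizontal, log scale). The line marks equal values. RPB1 points lie mostly far below the line, with medians of 5.36 against 33.21 in WT, while pSer2 points lie around it, with medians of 3.99 against 4.89.

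Over all members the median fold enrichment was 5.37 in WT and 5.28 in KO for RPB1, and 3.87 and 3.93 for pSer2. The medians of the whole lists were 5.51, 5.62, 3.69 and 3.80 in the same order, so the class sat near the middle of each list. The members were a little shorter than the rest for RPB1 and longer for pSer2. Their median length was 411 bp and 403 bp for RPB1 against 443 bp and 423 bp over all regions, and 523 bp and 475 bp for pSer2 against 350 bp and 357 bp.

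The base composition of the regions differed from that of promoter regions. The median GC content was 56.3% and 53.8% for RPB1 and 44.7% and 43.6% for pSer2 in WT and KO cells. The share of summits whose surrounding 200 bases were CpG-rich (at least 50% GC with an observed over expected CpG ratio of at least 0.6) was 14.5% (95% Wilson interval 11.0 to 18.9) in WT RPB1 and 13.6% (9.84 to 18.5) in KO RPB1, against 54.4% and 55.0% in promoter regions. For pSer2 it was 3.16% (2.10 to 4.74) and 2.25% (1.29 to 3.89), against 23.9% and 26.0%. In first-intron regions it was 5.94% and 4.94% for RPB1 and 0.853% and 0.804% for pSer2. The 5′ UTR regions therefore stood between first introns and promoters in all 4 lists. Exon regions had similar shares, at 15.4% and 13.6% for RPB1 and 3.05% and 2.69% for pSer2, so the position was not particular to the 5′ UTR class.

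The next comparison asked how many 5′ UTR regions were found in the other genotype with the same antibody. Of the WT RPB1 regions 174 of 303 (57.4%, 95% Wilson interval 51.8 to 62.9) shared 1 bp or more with a KO RPB1 region of any class, against 61.9% of all WT RPB1 regions. Of the KO RPB1 regions 179 of 243 (73.7%, 67.8 to 78.8) were overlapped by a WT region, against 74.9% of all. Both intervals include the share of the whole list. For pSer2 the share was 422 of 696 in WT (60.6%, 57.0 to 64.2) against 52.2% of all, and 389 of 534 in KO (72.8%, 68.9 to 76.4) against 69.9%. The WT pSer2 share was above that of its whole list by more than the counting error, and the KO pSer2 share was not. In WT pSer2 promoter regions had 62.1%, 3′ UTR regions 64.3% and downstream regions 61.3%, so the share was not particular to this class. Exon regions had 54.5%, and first-intron and later-intron regions 42.9% and 43.0%. With both antibodies a smaller share of WT members than of KO members had a counterpart, and the WT lists were the longer ones.

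Regions without a counterpart were the weak ones. In WT RPB1 the 129 regions with no KO counterpart had a median fold enrichment of 4.51 and the 174 with one had 6.60, and in KO RPB1 the medians were 4.39 and 5.64. For pSer2 they were 3.56 and 4.49 in WT and 3.44 and 4.28 in KO. In the top quartile of fold enrichment of the RPB1 lists all 26 WT and all 21 KO members had a counterpart, against 99.5% and 99.9% of all regions in that quartile. In the bottom quartile 23 of 67 WT members (34.3%) and 35 of 68 KO members (51.5%) had one, against 33.1% and 49.5%. Within these quartiles the members followed the rest of the list. With pSer2 the bottom quartile of WT stood apart, where 78 of 155 members (50.3%, 95% Wilson interval 42.5 to 58.1) had a KO counterpart, against 38.5% of all regions.

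The overlap between the antibodies in the same cells was larger for this class than for the lists as a whole. With RPB1 this was also so for exon, later-intron and 3′ UTR regions. In WT cells 205 of 303 RPB1 regions (67.7%, 95% Wilson interval 62.2 to 72.7) were overlapped by a pSer2 region, against 58.9% of all RPB1 regions, and in KO cells 157 of 243 (64.6%, 58.4 to 70.4) against 58.2%. Of the pSer2 regions 227 of 696 in WT (32.6%, 29.2 to 36.2) were overlapped by an RPB1 region against 24.2% of all, and 177 of 534 in KO (33.1%, 29.3 to 37.2) against 26.1%. All 4 intervals lay above the share of the whole list. Exon regions of the RPB1 lists had 66.0% in WT and 67.6% in KO, later-intron regions 64.1% and 65.2%, and 3′ UTR regions 85.4% and 87.2%. The RPB1 share was therefore not particular to the 5′ UTR class. First-intron RPB1 regions were below the whole lists, at 53.6% and 54.1%. In the pSer2 lists exon regions had 19.6% and 20.6%, first-intron regions 18.5% and 19.9% and promoter regions 53.8% and 55.7%. By fold enrichment the gap was widest among the strong regions, with 86 of 108 WT RPB1 members (79.6%, 71.1 to 86.1) against 61.9% in the quartile above the median, and 148 of 246 WT pSer2 members (60.2%, 53.9 to 66.1) against 45.9% in the top quartile. The antibodies of 1 genotype share their input library, and the part of that in the overlap was not tested. The pSer2 regions of this class were also longer than the rest of their lists, as given above.

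**Figure D3:**
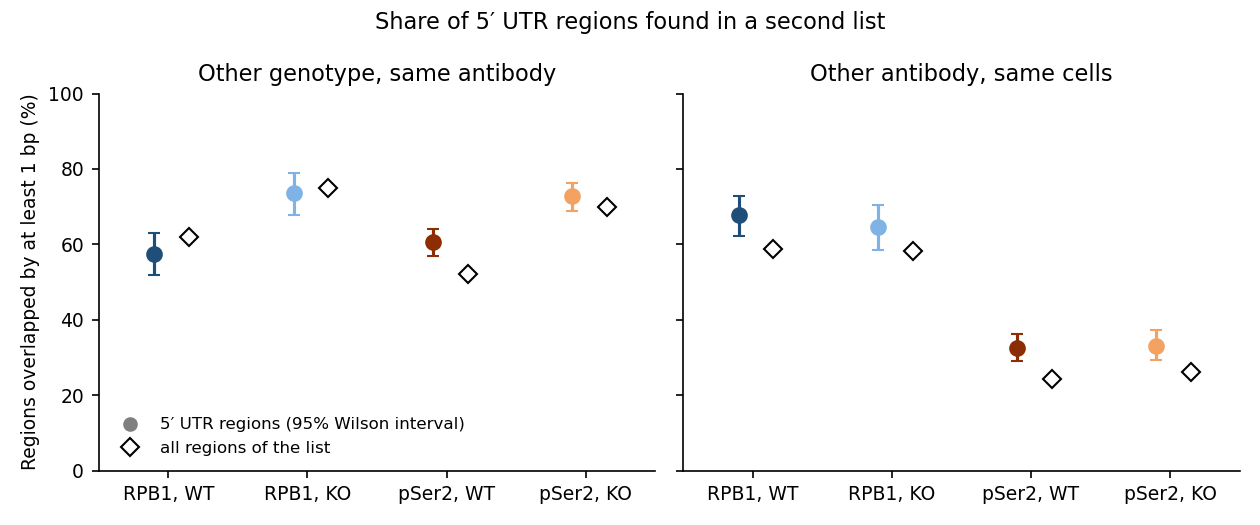
Share of 5′ UTR regions (filled circles, bars are 95% Wilson intervals for counting error) and of all regions (open diamonds) sharing 1 bp or more with a region of the other genotype (left) or the other antibody (right), in percent, for the 4 lists. On the right the circles lie above the diamonds in all 4 lists, by 67.7% against 58.9% in WT RPB1.

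To compare the genotypes at the same kind of region, WT and KO regions that overlapped and were both of the 5′ UTR class were paired, each region being used once. There were 134 such pairs for RPB1 and 291 for pSer2. RPB1 was lower in KO in 84 of its pairs and higher in 50, and the median log2 ratio of KO to WT was -0.21, against -0.28 over the 24809 pairs of like class in the whole lists. For pSer2, KO was higher in 150 pairs and not higher in 141, and the median was 0.01 against -0.03 over 43490 pairs. The members thus moved as the lists as a whole did, and with 1 library per group such a shift cannot be told apart from the enrichment that a library reached. At least 2-fold lower in KO were 9 RPB1 pairs (6.72%, against 7.64% of all pairs) and 7 pSer2 pairs (2.41%, against 2.13%). At least 2-fold higher were 2 RPB1 pairs (1.49%, against 0.907%) and 6 pSer2 pairs (2.06%, against 1.32%). These shares were close to those of the whole lists.

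**Figure D4:**
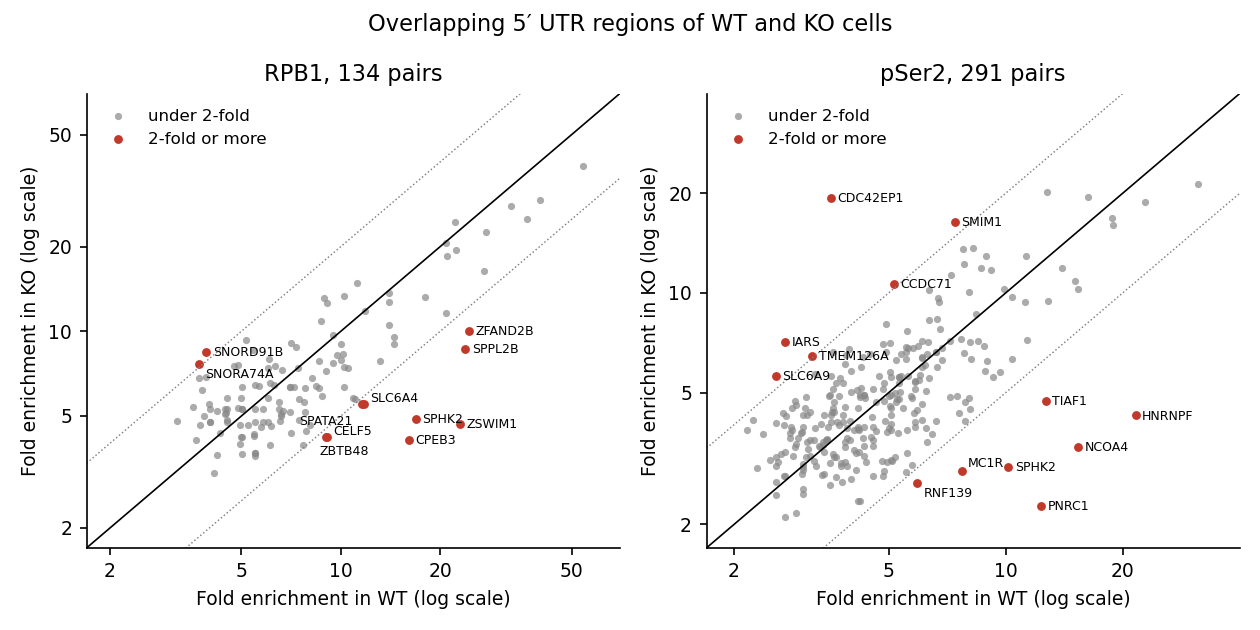
Fold enrichment in KO (vertical, log scale) against WT (horizontal, log scale) for each overlapping pair of 5′ UTR regions, 134 for RPB1 and 291 for pSer2. The solid line marks equal values, the dotted lines 2-fold, and pairs at or past 2-fold are named by the assigned gene. Most pairs lie between the dotted lines, and 9 RPB1 and 7 pSer2 pairs lie below them.

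Among the RPB1 pairs that were at least 2-fold lower in KO, SPPL2B stayed so under every other choice of counterpart and after each ratio was taken relative to the median of all shared regions. At SPPL2B, which encodes an intramembrane aspartyl protease, RPB1 was 23.84 in WT and 8.66 in KO (log2 ratio -1.46), with summits at positions 2330709 and 2330716 of chromosome 19 in regions of 1227 and 648 bp. pSer2 there was 7.90 in WT and 3.39 in KO, the latter in a region annotated exon. At ZFAND2B, a gene of protein quality control at the endoplasmic reticulum, RPB1 was 24.43 in WT and 10.03 in KO (-1.28). Of the other lower RPB1 pairs, CELF5 went from 9.08 to 4.22, SLC6A4 from 11.77 to 5.50 and SPATA21 from 11.60 to 5.50 (log2 ratios -1.10, -1.10 and -1.08). ZFAND2B, CELF5, SLC6A4 and SPATA21 stayed 2-fold lower with the strongest KO region of any class, but not relative to the median of all shared regions, where ZFAND2B fell just inside 2-fold and the log2 ratios of the others were -0.82, -0.82 and -0.80. At ZSWIM1 (22.97 and 4.68), CPEB3 (16.08 and 4.12) and ZBTB48 (9.01 and 4.22) the WT region also overlapped a stronger KO region of another class, against which the log2 ratio was -0.22, -0.59 and -0.29.

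SPHK2, the gene of a sphingosine kinase, was the only locus paired with both antibodies whose pairs were 2-fold lower in both, and it is named here after its values were seen. RPB1 was 16.93 in WT and 4.88 in KO (log2 ratio -1.79), and pSer2 was 10.16 in WT and 2.99 in KO (-1.77). The RPB1 values do not cover the same length. A single WT region of 5148 bp (chr19:48627011-48632158) stood over 4 KO regions, of which the 5′ UTR one was 273 bp long and the strongest, annotated 3′ UTR, reached 10.55, for a log2 ratio of -0.68. The summit of the WT region, at 48630098, lay close to that of this 3′ UTR region, at 48630171. The pSer2 regions were of like length, at 1213 bp in WT and 1753 bp in KO, and their summits, at 48627659 and 48627539, lay just upstream of the acceptor shown above. Farther along the locus pSer2 was 9.02 in WT and 7.10 in KO at the strongest 3′ UTR regions. The difference in pSer2 at this locus was thus larger between the 5′ UTR regions than between the 3′ UTR regions.

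**Figure D5:**
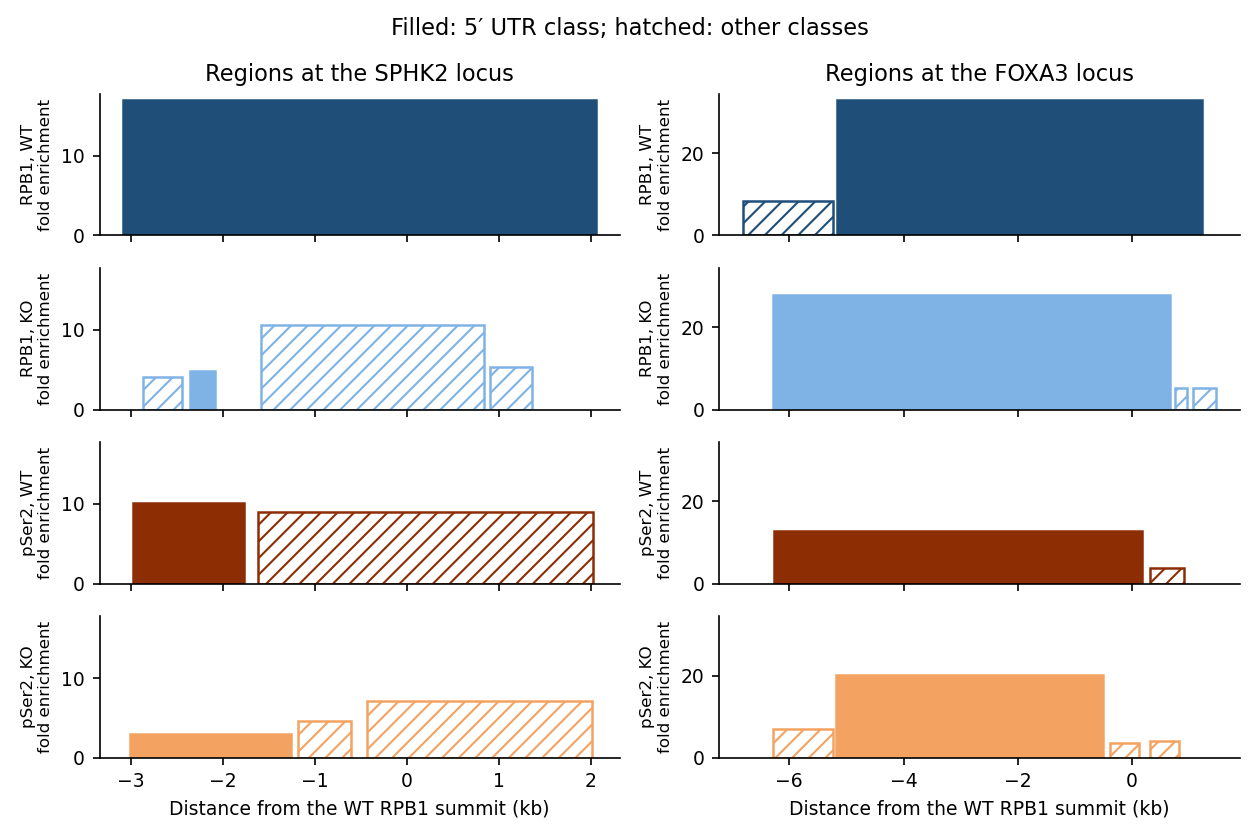
Regions of the 4 lists at the SPHK2 (left) and FOXA3 (right) loci. Each bar spans 1 region, by distance in kb from the summit of the WT RPB1 5′ UTR region, and its height is the fold enrichment at that region's summit. Filled bars are of the 5′ UTR class and hatched bars of other classes. At SPHK2 the WT RPB1 bar reaches 16.93 over the whole locus and the KO RPB1 bars 4.07 to 10.55, while FOXA3 keeps tall bars in every list.

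With RPB1 higher in KO were the regions assigned to 2 small nucleolar RNA genes that lie inside other genes. The region assigned to SNORD91B, over a 5′ UTR of the serine racemase gene SRR, was 3.92 in WT and 8.45 in KO (log2 ratio 1.11), and the region assigned to SNORA74A, over MATR3, was 3.73 and 7.66 (1.04). Both KO regions also overlapped a stronger WT region, of 6.01 at SNORD91B and 4.80 at SNORA74A, against which the log2 ratio was 0.49 and 0.67. UGDH, the UDP-glucose dehydrogenase gene, was just inside the 2-fold limit at 3.73 and 6.81 (0.87). With pSer2, KO was higher at SLC6A9 (2.56 in WT and 5.63 in KO, 1.14), TMEM126A (3.18 and 6.47, 1.02) and CCDC71 (5.17 and 10.65, 1.04). SLC6A9 and TMEM126A stayed 2-fold higher under each other choice of counterpart, whereas the KO region at CCDC71 also overlapped a WT region of 9.15, for a log2 ratio of 0.22. The pSer2 ratio at CDC42EP1 (3.56 and 19.32, 2.44) joined a WT region of 599 bp to a KO region of 5993 bp, and WT cells had a region of 23.16, annotated 3′ UTR, over most of that length, against which the log2 ratio was -0.26. At SMIM1 (7.39 and 16.39, 1.15) the direction depended on the counterpart, since the KO region with the nearest summit gave a log2 ratio of -0.92.

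pSer2 was lower in KO at NCOA4, whose product carries ferritin to autophagy, at 15.37 in WT and 3.42 in KO (log2 ratio -2.17), and it stayed lower against the strongest KO region there, a first-intron region of 7.42. RPB1 went the other way at NCOA4. The strongest RPB1 regions overlapping that WT pSer2 region had 10.52 in WT and 27.24 in KO, the latter of another class. With pSer2 PNRC1 had 12.34 and 2.28 (-2.44) and HNRNPF 21.63 and 4.27 (-2.34). At PNRC1 and HNRNPF, however, the long WT region also overlapped a KO region of another class. Against that region the log2 ratio was -0.33 at PNRC1 and 0.18 at HNRNPF. At most of the named genes the ratio therefore depended on the region of the locus that was taken or on the scaling, and 5 of the 24 pairs past 2-fold stayed so under all 4 alternatives, namely SPPL2B with RPB1 and NCOA4, SPHK2, SLC6A9 and TMEM126A with pSer2.

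The same was seen when each member was set against the strongest overlapping region of any class. KO was at least 2-fold higher at 8 (4.60%, against 5.19% of all shared regions) and lower at 9 (5.17%, against 6.61%) of 174 WT RPB1 members, and higher at 0 (against 0.555%) and lower at 34 (19.0%, against 17.5%) of 179 KO RPB1 members. For pSer2 it was higher at 13 (3.08%, against 3.40%) and lower at 8 (1.90%, against 1.47%) of 422 WT members, and higher at 3 (0.771%, against 0.839%) and lower at 26 (6.68%, against 6.31%) of 389 KO members. Again the members were close to the lists as a whole. The median log2 ratio of KO to WT was -0.19 for WT RPB1 members and -0.26 for KO RPB1 members (-0.21 and -0.38 over all shared regions), and 0.05 and -0.08 for pSer2 members (0.03 and -0.13). The most extreme ratios joined a 5′ UTR region to a long promoter region. HSP90B1, a chaperone gene of the endoplasmic reticulum, had 4.64 in its WT 5′ UTR region against 60.24 in a 14102 bp KO promoter region. TRIB3, a stress-induced pseudokinase gene, had 7.78 against 63.38 in one of 10228 bp. Near the host transcript's start the WT list itself had 86.21 at HSP90B1, above the KO value, and 3.73 at TRIB3. In the other direction the transferrin gene TF had 5.73 in its KO 5′ UTR region against 93.76 in a WT promoter region of 12224 bp. The KO region assigned to CCDC85B, which touched a 5′ UTR of FOSL1 in GENCODE release 44, had 6.73 against 108.64. Near the host transcript's start the KO list had 46.73 at TF and 37.49 at FOSL1. None of the 5 highest ratios of the WT RPB1 members, and none of the 5 lowest of the KO RPB1 members, had a counterpart of the 5′ UTR class. At those loci the other genotype had 1 region running from the promoter over the 5′ UTR region, and the lists give no separate value for the latter.

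The strongest members found in 1 genotype alone were modest. In WT RPB1 they were UBE2J2, a ubiquitin-conjugating enzyme gene of the endoplasmic reticulum (8.37), C3, the complement component made by hepatocytes (7.34), and MVK, the mevalonate kinase gene, and ZBTB7B (7.01 each). UBE2J2 also had a pSer2 region in WT (7.30) and none in KO. At MVK pSer2 was 2.82 in WT and 3.86 in KO, so the absence of a KO region there was one of RPB1 alone. C3 had a further 5′ UTR region that was 8.05 in WT and 4.66 in KO. In KO RPB1 the strongest were OIP5-AS1 (8.43), NAT8L (7.39) and CPSF2, the gene of a cleavage and polyadenylation factor (7.16), whose pSer2 values were 3.90 in WT and 7.15 in KO. In WT pSer2 they included BDH1, a ketone body enzyme gene (6.87), SERPINA12 (6.32) and DIO1, the deiodinase gene (5.86). Each of these 3 had an RPB1 region in WT (4.25, 5.61 and 4.76) and none in KO. TNS2, a gene of focal adhesions, had a WT pSer2 region of 5.75 and none in KO. The strongest RPB1 regions overlapping it had 28.85 in WT, where the region was of another class, and 4.28 in KO. In KO pSer2 they included FBXL19 (5.35), CS, the citrate synthase gene (5.14), and NDUFAB1 (5.06).

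Counted by assigned gene, the members fell on 904 genes, of which 56 had one in all 4 lists, 66 in 3, 288 in 2 and 494 in 1. RPB1 members marked 269 genes in WT and 213 in KO, and the 127 in common were 47.2% of the former and 59.6% of the latter. pSer2 members marked 569 and 441 genes, and the 269 in common were 47.3% and 61.0%. For exon regions the genes in common were 57.2% of the WT and 68.0% of the KO genes with RPB1 and 63.1% and 77.6% with pSer2, and for first-intron regions 62.7% and 71.3%, and 63.7% and 81.3%. The 5′ UTR class thus had lower shares in common than these classes, and it marked far fewer genes, since exon regions marked 1933 and 1625 genes with RPB1. The 56 genes with a member in every list covered varied functions. They included FDPS, the farnesyl diphosphate synthase gene of sterol synthesis (RPB1 9.44 in WT and 9.70 in KO, pSer2 8.84 and 5.80), the antiplasmin gene SERPINF2 (14.02 and 10.56, 7.88 and 4.68) and the lysosomal glucosidase gene GAA (9.01 and 7.21, 3.47 and 3.60). CDKN1A, the gene of the cell cycle inhibitor p21, had 6.11 and 5.32 for RPB1 and 7.60 and 4.33 for pSer2, where the WT region of 6997 bp ran to the 3′ UTR and KO had a separate 3′ UTR region of 15.30. CANX, a chaperone gene of the endoplasmic reticulum, had 7.07 and 9.07, and 5.05 and 4.57. AARS, the alanyl-tRNA synthetase gene, had 8.73 and 10.84, and 10.41 and 9.72. At these 6 genes the strongest members of the genotypes differed by less than 2-fold. Over all 56 genes the strongest RPB1 member was at least 2-fold lower in KO at 3 and higher at 1 (SNORD91B, log2 ratio 1.11). The lower 3 were SPHK2, TCF25 and CDC42EP1, with log2 ratios of -1.79, -1.20 and -1.06. The strongest pSer2 member was lower at 3 (SPHK2, MC1R and NIPSNAP1, with -1.77, -1.41 and -1.25) and higher at 1 (CDC42EP1, 2.44). The strongest members of a gene need not overlap, and the same counts over all genes were not made. The WT RPB1 region at TCF25 (8.90) overlapped a KO 5′ UTR region of 13.09. That at CDC42EP1 (7.71) overlapped a KO 3′ UTR region of 13.73. At NIPSNAP1 an overlapping pSer2 pair had 4.55 and 3.93 (-0.21).

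Few genes of the lists chosen for this tissue had a member. Among 30 liver transcription factor genes FOXA3 had one in all 4 lists, and it was the only one with RPB1, 1 of 27 genes with any RPB1 region in each genotype (3.70%, against 1.90% of all genes in WT and 1.58% in KO). With pSer2, 4 of 26 in WT (15.4%, against 4.47% of all genes) and 3 of 24 in KO (12.5%, against 3.86%) had one. NR1H4, the bile acid receptor gene, had 5.00 in WT and 4.89 in KO in its stronger region, PROX1 had a WT region of 8.11 and 13216 bp that covered a KO 5′ UTR region of 4.46 and a KO region of another class of 9.61, and THRB, a thyroid hormone receptor gene, had 3.53 in WT only. Among 36 genes of gluconeogenesis and insulin signalling none had an RPB1 member, and 6.67% in WT and 3.33% in KO of those with a pSer2 region had a pSer2 member. With pSer2 GSK3A, a kinase gene of glycogen metabolism, had 5.84 in WT and 3.93 in KO, and MPC1, the mitochondrial pyruvate carrier gene, had 3.92 in WT, where the region touched no 5′ UTR of GENCODE release 44. Of 36 secreted liver protein genes C3 had RPB1 members in both genotypes and TF in KO only, as described above. That was 3.03% in WT and 6.67% in KO of those with an RPB1 region, against 1.90% and 1.58% of all genes. FGB, the fibrinogen beta chain gene, had a pSer2 member in WT (4.75). The pSer2 share was 3.12% in WT and 0 in KO, against 4.47% and 3.86%.

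Members were also few in number among 24 genes known for upstream open reading frames, 36 of RNA pol II elongation and pausing and 67 chromatin regulator genes. Of the first list, 2 of 19 genes with a pSer2 region (10.5%) had a pSer2 member in each genotype. Over all genes the pSer2 share was 4.47% in WT and 3.86% in KO. The elongation genes had 2.94% and 3.12% with pSer2, and the chromatin genes 0 and 3.70%. With RPB1 only the chromatin genes had a member, 1 of 60 in KO (1.67%, against 1.58%). TXNRD1, the thioredoxin reductase gene, had 3 pSer2 members in each genotype. The strongest in WT had 5.75, against 4.81 in the KO member that overlapped it. The strongest in KO lay elsewhere and had 5.84, against 6.76 in an overlapping WT promoter region. SLC7A1, a cationic amino acid transporter gene, had 3.01 in KO only. CCNT2, a cyclin gene of the elongation factor P-TEFb, had 2.70 with pSer2 in WT. NCOA3 had 2.56 with pSer2 in KO, and a region assigned to KMT2B had 4.75 with RPB1 in KO, where WT had a region of another class at 31.54. With counts of 0 to 4 genes no list can be said to differ from the rest.

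Some genes held several members. NTMT1, an N-terminal methyltransferase gene, had 2 and 3 RPB1 and 3 and 4 pSer2 members in WT and KO, and in GENCODE release 44 most of them touched a 5′ UTR of C9orf50. IARS, the isoleucyl-tRNA synthetase gene, had 0 and 1 RPB1 members and 8 and 6 pSer2 members, with fold enrichments of 2.37 to 6.35 in WT and 2.92 to 8.27 in KO for pSer2. ROCK2, a protein kinase gene, had 5 and 9 pSer2 members (2.17 to 3.65 and 2.16 to 4.34) and none with RPB1. The IARS members touched no 5′ UTR of GENCODE release 44, and 1 ROCK2 member in each genotype did. At these 2 genes the members therefore rested on the 5′ UTR models used by the authors.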

How the data were processed

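Chromatin immunoprecipitation sequencing was done by the authors in HepG2 cells, with 1 library per antibody and genotype, and 2 input libraries that were not analysed here as such. Per the study's methods, reads were trimmed with Trimmomatic, aligned to GRCh38/hg38 with the Burrows-Wheeler aligner, and narrow peaks were called with MACS2 in each library against its matching input (versions not given in the sources used here). The deposited lists give each region's fold enrichment (a ratio over input at the summit), its −log10 p-value and −log10 q-value, a display score that was not used, and an annotation class with an assigned gene. The smallest −log10 q-value was 1.31 in each list. A further deposited table of differential binding between genotypes holds the authors' own comparison and was not used.

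Regions annotated 5′ UTR were the members. Overlap meant at least 1 bp. Where a region had several counterparts the one with the highest fold enrichment was taken, and like-class pairs used each region once (chosen after seeing the data). Members were checked against GENCODE release 44 on hg38, the transcript being that of the assigned gene where possible. All 271336 regions lay within their hg38 chromosome. Shares carry 95% Wilson intervals. No test was made, since each group had 1 library. Genes were named by a rule: the 8 strongest per list, those with a member in all 4 lists, the 5 strongest in 1 genotype alone, the 5 highest and 5 lowest ratios per list, listed genes, and the 3 genes with most members, with the like-class pairs past 2-fold added. A few genes that this rule names are not reported here. Members and gene lists were chosen with earlier results of these data known. Alternatives were a −log10 q-value of at least 5, distinct intervals, other overlap rules, other counterparts and other windows. The overlap search, ratios and intervals were tested on simulated regions. Python 3.11.15, pandas 2.3.3, numpy 2.4.6, scipy 1.17.1 and matplotlib 3.10.9 were used.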

Additional observations from a re-analysis of the deposited data

How the results depend on the processing

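With 1 library per antibody and genotype no ratio has an error, depth is unknown, and a locus divided differently by the caller changes its value. No paired analysis was possible because each group had 1 library. Values below are in the order WT RPB1, KO RPB1, WT pSer2, KO pSer2. The share overlapped by the other genotype became 30.0, 38.3, 30.2 and 36.3% with a reciprocal overlap of at least 50%, 46.9, 64.2, 46.3 and 62.5% with the member's summit inside the counterpart, 74.2, 88.2, 77.0 and 88.3% for members of −log10 q-value of at least 5, 44.2, 56.4, 43.0 and 57.5% with a counterpart of the same class, and 81.5, 91.4, 77.3 and 88.6% within 1 kb. The share overlapped by the other antibody became 23.8, 15.6, 8.62 and 7.12%, 55.4, 55.1, 21.4 and 21.2%, 75.8, 76.4, 47.0 and 48.3%, and 47.2, 44.4, 19.3 and 18.7% under the first 4 of these. At −log10 q-value of at least 5 the median fold enrichment was 6.66, 6.34, 4.94 and 4.88, the median length 688, 584, 927 and 902 bp, the class share 0.788 and 0.738% for pSer2, and the number of listed genes with a KO RPB1 member 2 instead of 4. Regions with their summit in a 5′ UTR of GENCODE release 44, whatever their class, were 14.2, 15.1, 3.52 and 3.99% of the lists. In 200 bases around the summit GC was 58.0% in WT RPB1 and the CpG ratio 0.21 in KO pSer2. The small median log2 ratios of KO to WT changed sign under several alternatives, and the cause was not tested: relative to the median of all shared regions they were 0.03 for WT RPB1, 0.12 for KO RPB1 and 0.05 for KO pSer2 members, with a reciprocal overlap -0.15 for KO RPB1 and 0.04 for KO pSer2, with the nearest summit -0.01 for WT pSer2, and with like-class pairs 0.01 for KO pSer2. No direction is therefore given for pSer2, and the RPB1 fall is no larger than that of the list. Of 24 like-class pairs past 2-fold, 15 stayed so with the strongest counterpart of any class, 14 with the nearest summit, 19 after division by the median, 19 with the strongest WT region overlapping the KO region, and 5 under all 4. HNRNPF turned to 0.18 under the first and second of these, SMIM1 to -0.92 under the second and CDC42EP1 to -0.26 under the fourth. In 48 further cases an alternative stayed within the 95% interval or the set tolerance of the value given, leaving out chromosome 1 among them. That alternative, the like-class pairs and the strongest KO or WT region of any class for those pairs were chosen after seeing the data, and counting distinct intervals removed 0 regions.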
